A study of Mus musculus with 8 samples.

Results

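Chromatin loops of the newborn mouse lens epithelium were grouped by whether CTCF was bound at their anchors. The deposited epithelium list held 8005 loops, and an anchor counted as bound when at least 1 bp of it overlapped a CTCF peak called in the same cell type. A peak lay at both anchors of 1259 loops, at one anchor of 3582 loops and at no anchor of 3164 loops. These groups are called both-anchor, one-anchor and no-peak loops. HiCCUPS, the program that called the loops, listed each loop with anchors of 5, 10 or 25 kb. A wider anchor meets a peak more often, so the groups were compared within one anchor width, and counts over all widths are named as such.

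Epithelium was microdissected from lenses of CD-1 mice at postnatal day 0.5. Hi-C, which counts how often pairs of DNA segments are ligated after crosslinking, was performed on 2 replicates of 30 epithelia each, fixed in 2.0% formaldehyde, and the authors merged both replicates into 1 map. CTCF ChIP-seq used 200 lenses and is labelled as 1 sample per cell type, precipitated from 6 µg of chromatin with 5 µl of antibody. Lens fiber cells of the same age and v6.5 mouse embryonic stem (ES) cells grown with LIF served as other loop lists. Epithelia of many animals were pooled, and no RNA was measured, so the cell type label could not be checked against marker genes. With 1 merged list, loops are not replicates: values are medians or shares with 95% intervals that cover counting error only, and no test was made. The observed count of a loop, its contacts in the merged map, ran from 13 to 384 with a median of 51.0.

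CTCF is a zinc finger protein that binds a long, asymmetric DNA motif. In the loop extrusion model, cohesin reels in chromatin until it meets CTCF, and it is retained where the motif points into the loop, so that loop anchors often carry motifs facing each other. Loops can also join promoters and enhancers without CTCF at either end. In the lens epithelium, the proliferating anterior cell layer that gives rise to fiber cells, chromatin loops surround genes of transcription factors such as Pax6 and Sox2.

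Promoters gave the only windows in which DNA could be read here. RefSeq promoter windows of GRCm38.p6 (the assembly of mm10), from 250 bases before to 50 bases after a gene start, were searched on both strands for a 12-letter core of the CTCF motif with 4 free positions, chosen from general knowledge of the motif and not from the deposited files. It occurred in 796 of 32817 promoter windows, or 2.43%. Among windows that overlapped an epithelium CTCF peak, 113 of 427 (26.5%, 22.5 to 30.8) held it. The share was 30.5% (39 of 128 windows) for those in a loop anchor as well, and 33.9% (20 of 59, 23.1 to 46.6) for those in an anchor of a both-anchor loop. In windows at loop anchors without a peak the core was found in 134 of 4410, or 3.04% (2.57 to 3.59). Windows of neighbouring starts can overlap and then share a match.

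Of the protein-coding promoters with the core at both-anchor loops, 8 had enough flanking bases and are shown because they let the direction of the motif be read against the loop. Each line gives 60 bases, read 5′ to 3′ on the strand on which the core reads forward, and capitals mark the core.
Pdzd9: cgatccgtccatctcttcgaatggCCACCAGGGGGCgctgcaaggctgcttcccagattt
Noc3l: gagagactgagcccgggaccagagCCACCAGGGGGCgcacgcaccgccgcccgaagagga
Lsm11: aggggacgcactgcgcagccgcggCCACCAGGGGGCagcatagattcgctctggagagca
2410004P03Rik: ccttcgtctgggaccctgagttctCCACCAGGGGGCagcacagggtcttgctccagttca
Ext2: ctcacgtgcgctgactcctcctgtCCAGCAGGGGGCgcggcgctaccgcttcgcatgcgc
Krtcap2: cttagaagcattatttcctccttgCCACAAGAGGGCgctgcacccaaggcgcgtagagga
Copg1: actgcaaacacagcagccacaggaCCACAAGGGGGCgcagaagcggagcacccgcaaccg
Trex1: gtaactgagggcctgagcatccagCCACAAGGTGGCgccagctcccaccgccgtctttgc

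The shown bases lie on the + strand at chr7:120670313-120670372 for Pdzd9, chr11:45945003-45945062 for Lsm11, chr3:89246343-89246402 for Krtcap2 and chr6:87887697-87887756 for Copg1. They lie on the - strand at chr19:38819263-38819322 for Noc3l, chr12:17011752-17011811 for 2410004P03Rik, chr2:93822569-93822628 for Ext2 and chr9:109059789-109059848 for Trex1. Ext2 encodes a glycosyltransferase that builds heparan sulphate, Copg1 a coat protein of Golgi vesicles and Trex1 a DNA exonuclease. The peak over these promoters had a MACS2 fold enrichment over background from 4.05 at Trex1 to 11.3 at Pdzd9. The core pointed into its both-anchor loop at 6 of these 8 promoters and out of it at Noc3l and Lsm11.

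Over the promoter windows searched, 742 distinct core sites were found, 99 of them inside an epithelium peak. Of the latter, 34 sites lay in a loop anchor, and these made 46 pairs of a site and a loop. The core pointed into the loop in 40 of the 46 pairs (87.0%, 74.3 to 93.9). The share was 18 of 21 pairs in both-anchor loops and 22 of 25 pairs in one-anchor loops. At left anchors the forward core lay on the + strand in 21 pairs and on the - strand in 2, and at right anchors on the - strand in 19 and on the + strand in 4. Counted once each, 28 sites pointed only inward and 5 only outward, while the site at Gm32898 faced into one loop and out of another. Sites used by several loops were counted in each pair.

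Loop anchors held CTCF peaks more often than the genome did, at every width. At 5 kb, an epithelium peak lay in 34.3% of the 2934 anchors and in 3.18% of all 5 kb bins of the genome. The shares were 35.2% of 6412 anchors against 6.00% of bins at 10 kb and 42.6% of 6664 anchors against 13.5% at 25 kb. Counting an anchor used by several loops once gave 33.8%, 34.4% and 41.1%. Most bound anchors held a single peak, namely 93.7% of them at 5 kb, 90.3% at 10 kb and 82.2% at 25 kb.

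Both-anchor loops were the smallest group at each width. They made up 196 of 1467 loops at 5 kb (13.4%, 11.7 to 15.2), 439 of 3206 at 10 kb (13.7%, 12.5 to 14.9) and 624 of 3332 at 25 kb (18.7%, 17.4 to 20.1). One-anchor loops were 41.8%, 42.9% and 47.8%, and no-peak loops were 44.9%, 43.4% and 33.5%. These sizes depend on the share of anchors bound, 34.3%, 35.2% and 42.6%, and sizes under free pairing of anchors were not computed. In one-anchor loops the peak lay at the left anchor about as often as at the right, in 49.1%, 48.5% and 49.8% of them. On chromosome X both-anchor loops were 1 of 52 at 10 kb and 10 of 102 at 25 kb, a lower share than on any other chromosome. At 5 kb they were 1 of 11 (9.09%), too few to compare, and several autosomes had lower shares, such as 1 of 49 on chromosome 14.

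**Figure D1:**
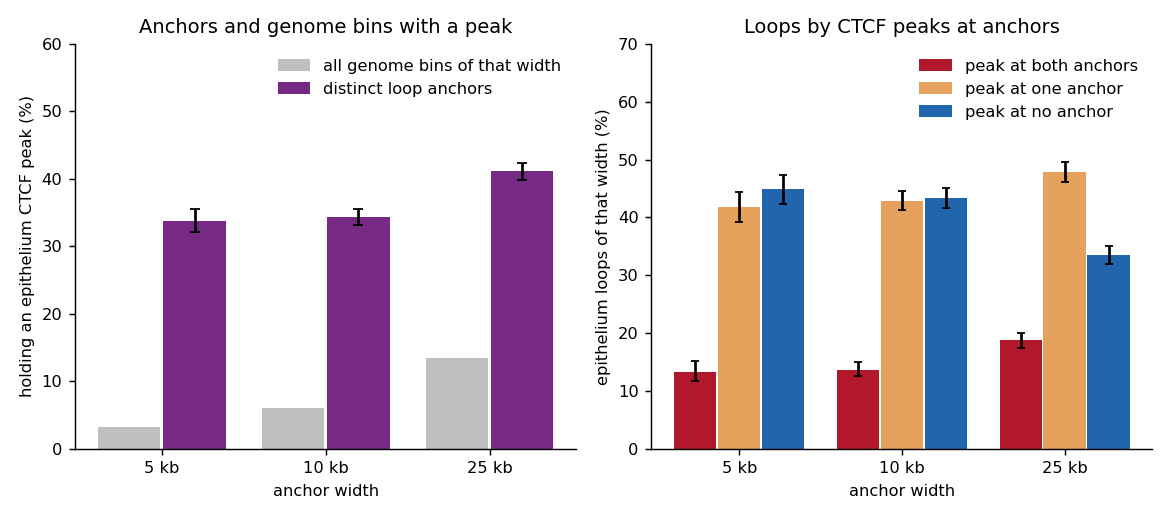
Left, percent of genome bins and of distinct epithelium loop anchors that hold an epithelium CTCF peak, by anchor width. Right, percent of epithelium loops of each width with a peak at both anchors, at one or at none, with bars starting at 0 and error bars for Wilson 95% intervals. Anchors exceed bins at each width (33.8% against 3.18% at 5 kb), and the share of no-peak loops is lowest at 25 kb (33.5%).

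A minority of anchors without an epithelium peak lay close to one, and many held a peak of the fiber list. The nearest epithelium summit lay within 5 kb outside the anchor for 26.4% of unbound anchors at 5 kb, 17.4% at 10 kb and 10.4% at 25 kb. The median gap was 20.1 kb, 37.7 kb and 57.8 kb. Neither value was computed for all genome bins. The fiber list holds 23868 peaks and the epithelium list 16433. A fiber CTCF peak lay in 33.1%, 37.4% and 42.3% of the anchors without an epithelium peak, compared with 4.56%, 8.51% and 18.6% of all bins of these widths. Among anchors with an epithelium peak the share was 96.1%, 94.1% and 93.7%.

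The fiber peaks at unbound anchors were weaker. Their strongest fiber peak had a median fold enrichment of 6.44 (6.25 to 6.57) at 5 kb, against 8.79 (8.61 to 8.92) at anchors bound in the epithelium. The medians were 6.36 and 8.51 at 10 kb and 6.27 and 8.60 at 25 kb. Of the no-peak loops, 338 of 658 (51.4%) at 5 kb, 611 of 1391 (43.9%) at 10 kb and 404 of 1115 (36.2%) at 25 kb had no fiber peak at either anchor. A fiber peak at both anchors was found in 10.9%, 15.5% and 19.2% of no-peak loops and in 92.9%, 89.7% and 86.5% of both-anchor loops.

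The typical both-anchor loop was longer than the typical no-peak loop at 10 kb. There the median distance between anchor midpoints was 220 kb (200 to 250) for both-anchor loops, 190 kb (180 to 200) for one-anchor loops and 160 kb (150 to 180) for no-peak loops. The ratio of both-anchor to no-peak loops was 1.38, and the ends of both intervals gave 1.11 to 1.67. At 25 kb the medians were 425 kb (400 to 450) and 375 kb (350 to 400), with a ratio of 1.13 (1.00 to 1.29). At 5 kb they were 155 kb (135 to 170) and 148 kb (130 to 160), which overlapped. The median was higher in both-anchor loops on 14, 17 and 16 of 20 chromosomes at 5, 10 and 25 kb. In this and the later chromosome counts, a chromosome held as few as 1 both-anchor loop at 5 and 10 kb and 10 at 25 kb.

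The lower quartile, for which no interval was computed, was smaller in no-peak loops at every width. It was 93.8 kb in both-anchor loops and 75 kb in no-peak loops at 5 kb, 130 kb and 90.0 kb at 10 kb, and 269 kb and 200 kb at 25 kb. The mean went the other way at every width: it was 505 kb for both-anchor and 921 kb for no-peak loops at 5 kb, 328 kb and 581 kb at 10 kb, and 617 kb and 809 kb at 25 kb. Loops over 3 Mb set these means. Without its single longest loop, of 54870 kb, the both-anchor mean at 5 kb was 226 kb. Among loops up to 3 Mb the both-anchor and no-peak means were 226 and 222 kb at 5 kb, 328 and 271 kb at 10 kb, and 578 and 507 kb at 25 kb.

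Loops longer than 3 Mb were rare, 84 of 8005 or 1.05%. Within a width the groups were not told apart. At 5 kb they were 1 of 196 both-anchor (0.510%) and 14 of 658 no-peak loops, a ratio of 0.240 (0.0317 to 1.81). At 25 kb they were 8 of 624 (1.28%) and 23 of 1115 (2.06%), a ratio of 0.622 (0.280 to 1.38). At 10 kb they were 0 of 439, which allows a share of up to 0.683%, and 11 of 1391 (0.791%, 0.442 to 1.41). Over all widths there were 9 both-anchor, 27 one-anchor and 48 no-peak loops, of which 1, 3 and 24 were above 10 Mb. The long no-peak loops rested on few contacts, with a median of 17.0 observed against 0.170 expected, and the expected count was below 1 in 35 of the 48. The long both-anchor loops had a median of 47.0 observed contacts against 12.9 expected. Of the 48 long no-peak loops, 26 were also in the fiber list and 10 in the ES cell list, at 10 kb tolerance.

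Contact enrichment, the observed count over the count that HiCCUPS expected from a donut of surrounding pixels, was higher with CTCF at both anchors at 10 and 25 kb. At 10 kb its median was 3.58 (3.50 to 3.66) in both-anchor loops, 3.26 (3.22 to 3.31) in one-anchor loops and 3.15 (3.09 to 3.21) in no-peak loops, a ratio of both-anchor to no-peak loops of 1.14 (1.09 to 1.19). At 25 kb the medians were 2.61 (2.56 to 2.65), 2.50 (2.46 to 2.53) and 2.42 (2.39 to 2.46), a ratio of 1.08 (1.04 to 1.11). At 5 kb they were 5.15 (5.01 to 5.38), 5.17 (5.03 to 5.30) and 4.91 (4.77 to 5.08), and the ratio of 1.05 had a range of 0.986 to 1.13 that includes 1. It turned to 0.971 and 0.973 with the bottom left and the vertical surroundings in place of the donut. The both-anchor median exceeded the no-peak median on 14, 19 and 17 of 20 chromosomes.

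Enrichment rises with distance, so the groups were also set side by side within distance bins that held at least 20 loops of each. The both-anchor median was the higher one in 4 of 4 bins at 5 kb, 7 of 7 at 10 kb and 6 of 7 at 25 kb. In the 3 sparser bins at 5 kb up to 3 Mb the no-peak median was the higher one, 6.12 against 5.40 in 12 both-anchor loops of 400 to 600 kb, 6.62 against 6.51 in 4 loops of 600 to 1000 kb and 7.39 against 7.38 in 5 longer ones. The largest ratio among the fuller bins was 1.18, for 10 kb loops between 400 and 600 kb, with medians of 4.38 (3.97 to 4.86) and 3.71 (3.60 to 4.01). The exception was the shortest bin at 25 kb, loops up to 100 kb, with 2.16 (2.03 to 2.37) in 29 both-anchor loops and 2.24 (2.14 to 2.54) in 87 no-peak loops.

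**Figure D2:**
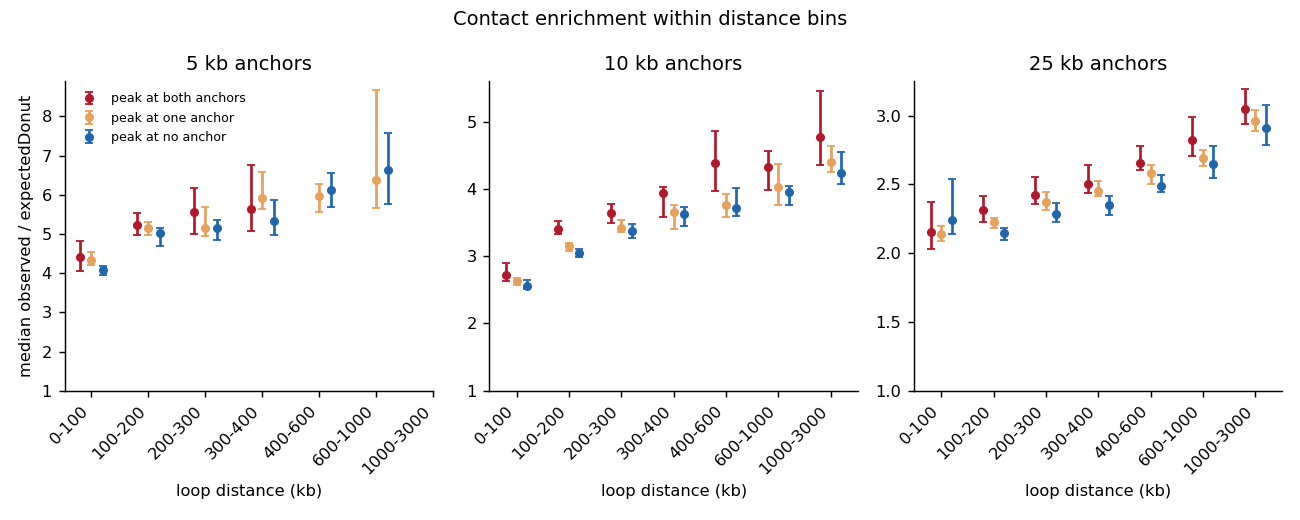
Median observed over expectedDonut contacts by loop distance in kb, in a panel for each anchor width with its own vertical scale, for each group with at least 20 loops in the bin; bars are order statistic 95% intervals of the median. Both-anchor loops lie above no-peak loops in every bin where both are shown except the shortest at 25 kb anchors, and the intervals of many bins overlap.

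Both parts of the ratio differed between widths. At 5 kb, both-anchor loops had more observed contacts, a median of 26 against 23.5 in no-peak loops, over expected counts of 5.16 and 4.89. At 10 and 25 kb the observed medians were close, 45 against 44 and 91 against 89. The median expected count was lower in both-anchor loops, 12.8 against 13.8 and 33.3 against 37.0. Its ratio was 0.926 (0.843 to 0.9997) at 10 kb and 0.901 (0.810 to 1.002) at 25 kb, where the range includes 1. Median distance was also higher in both-anchor loops at these widths, and its part in the expected count was not tested. The mean enrichment was again set by single loops. It was 16.3 in both-anchor and 33.5 in no-peak loops at 5 kb, where 3 of 196 both-anchor and 38 of 658 no-peak loops (5.78%, 4.24 to 7.83) had an enrichment above 20. At 10 kb, 0 of 439 both-anchor and 15 of 1391 no-peak loops (1.08%, 0.655 to 1.77) passed 20. At 25 kb, 0 of 624 and 11 of 1115 (0.987%, 0.552 to 1.76) did. The counts of 0 allow shares of up to 0.683% and 0.481%. Over all widths 85 of 8005 loops passed 20, namely 3 of 1259 both-anchor, 18 of 3582 one-anchor and 64 of 3164 no-peak loops. Of these 85, 45 were longer than 3 Mb.

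**Figure D3:**
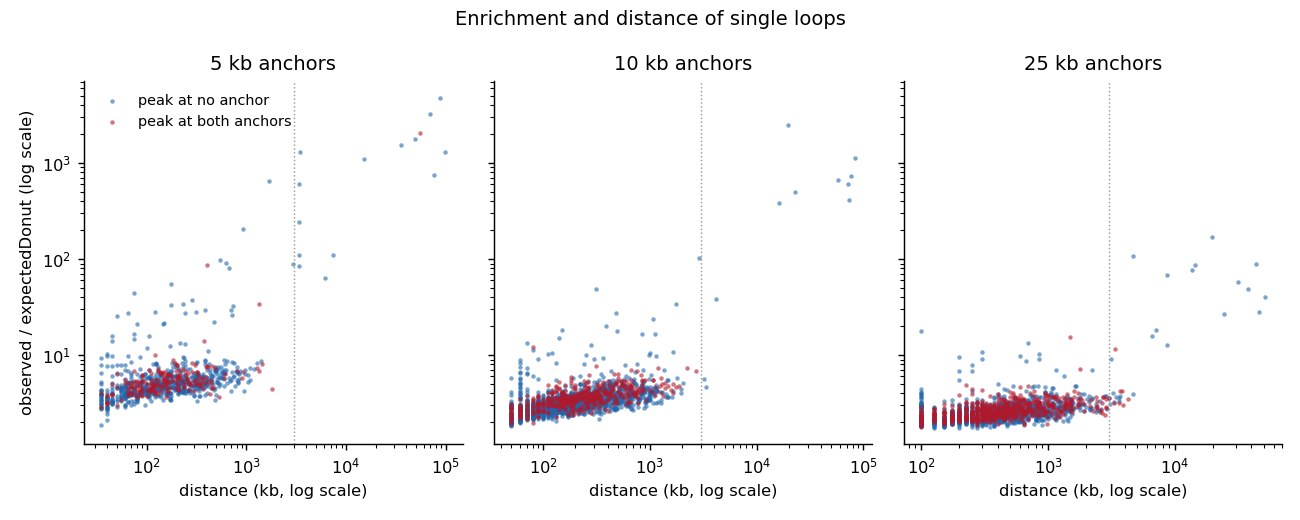
Each point is 1 epithelium loop, with the distance between its anchors in kb and its observed over expectedDonut contacts, both on log scales, for both-anchor and no-peak loops in a panel for each anchor width; the dotted line marks 3 Mb. Most loops of both groups share one cloud, and the points above an enrichment of 20 are mostly no-peak loops (64 of 3164 over all widths, against 3 of 1259 both-anchor loops).

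The loops of highest enrichment in each group differed in kind. At 5 kb, the first 5 no-peak loops spanned 35260 to 99035 kb on chromosomes 1 and 2, with 14 to 20 contacts each and no gene start at an anchor. Actr2, a subunit of the Arp2/3 actin complex, starts in an anchor of a 77050 kb no-peak loop with 17 contacts against 0.0232 expected. Gm17434 starts in an anchor of a 4625 kb no-peak loop with 13 contacts against 0.120 expected. All 15 no-peak loops named by this rule had 1 merged pixel and were over 3 Mb.

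Among both-anchor loops the highest enrichments at 5 kb were a 54870 kb loop on chromosome 11 with 43 contacts (2041) and a 405 kb loop on chromosome 12 between immunoglobulin heavy chain V segments (87.1). Next came 2 loops of chromosomes 17 and 6 (33.8 and 14.2) and the loop of Ago2, which encodes an Argonaute protein of small RNA silencing. It joined chr15:73065001-73070000 to chr15:73185001-73190000 with 54 contacts against 5.37 expected (10.1) and was in the fiber and ES cell lists. At 10 kb the first was between H2-T23 and H2-T-ps, MHC class I genes of chromosome 17, 80 kb apart with an enrichment of 12.2. Steap1, a gene of the STEAP metalloreductase family, lay at a 2240 kb loop with 49 contacts (7.31).

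At 25 kb the list held H2-Q10 (1475 kb, 15.5), Eddm3b and Rnase6 joined to Rem2 (3375 kb, 11.5, on 14 contacts), Zfp990 (1800 kb, 7.11) and Lgals8, a galectin gene (225 kb, 4.95). The immunoglobulin, MHC, ribonuclease and zinc finger genes belong to families of similar genes. The authors kept only reads that passed a mapping quality limit. Whether misassigned reads enter the values of these genes was not tested, so the values are uncertain. The 18S ribosomal RNA copy Rn18s-rs5, at chr17:39845001-39850000, lay in an anchor of 2 long one-anchor loops with 167 and 299 contacts.

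The number of enriched pixels merged into a loop, numCollapsed, was higher with CTCF at both anchors at 5 kb. At 5 kb, 3 or more pixels were merged in 78 of 196 both-anchor loops (39.8%, 33.2 to 46.8), in 36.5% of one-anchor loops and in 184 of 658 no-peak loops (28.0%, 24.7 to 31.5), with 33.1% over all loops of that width. The ratio of both-anchor to no-peak loops was 1.42 (1.15 to 1.76). At 10 kb the shares were 32.1%, 28.9% and 27.4% (28.7% of all), a ratio of 1.17 (0.999 to 1.38) whose interval reaches 1. At 25 kb they were 20.03%, 22.5% and 21.6% (21.8% of all), a ratio of 0.927 (0.764 to 1.12). With the stronger 50% of peaks the 5 kb ratio was 1.13 (0.823 to 1.55), and the 10 kb ratio 1.28 (1.04 to 1.58). At 25 kb the same setting gave 0.722 (0.529 to 0.986), below 1, so the direction differed between widths. The 10 kb interval also lay above 1 with the fiber peak list (1.02 to 1.41), with anchors widened by 5 kb (1.34, 1.16 to 1.56) and with all 4 FDR below 0.01 (1.28, 1.08 to 1.52).

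Both-anchor loops were more often found again in the other cell types. A loop counted as shared when the other list had a loop whose anchor midpoints were each no more than 10 kb away. Of the 5 kb loops, 91.8% (87.2 to 94.9) of both-anchor loops, 82.7% (79.5 to 85.5) of one-anchor loops and 74.5% (71.0 to 77.7) of no-peak loops were shared with fiber cells, compared with 80.2% of all. At 10 kb the shares were 67.9%, 64.0% and 54.3% (60.3% of all), and at 25 kb 49.4%, 40.9% and 33.2% (39.9% of all). The ratio of both-anchor to no-peak loops was 1.23 (1.16 to 1.31), 1.25 (1.15 to 1.35) and 1.49 (1.33 to 1.67). The both-anchor share was the higher one on 19, 18 and 18 of 20 chromosomes and in the 18 distance bins with at least 20 loops of each group. It was lower in the 5 kb bin of 400 to 600 kb, with 83.3% of 12 both-anchor and 91.8% of 49 no-peak loops. Chromosomes with as few as 1 both-anchor loop at 5 and 10 kb are among those counted.

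The order was the same for ES cells, whose CTCF the grouping did not use. The shares of both-anchor, one-anchor and no-peak loops were 85.7%, 78.3% and 61.2% at 5 kb (71.6% of all), 57.6%, 47.7% and 35.0% at 10 kb (43.5% of all) and 25.8%, 17.8% and 13.0% at 25 kb (17.7% of all). The ratios of both-anchor to no-peak loops were 1.40 (1.29 to 1.52), 1.65 (1.48 to 1.83) and 1.98 (1.62 to 2.43). Loops in neither other list were 4 of 196 both-anchor loops (2.04%) and 120 of 658 no-peak loops (18.2%) at 5 kb, 18.2% and 36.1% at 10 kb, and 40.5% and 62.2% at 25 kb. Enrichment was also higher in both-anchor loops at 10 and 25 kb, and its part in the shares was not tested.

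**Figure D4:**
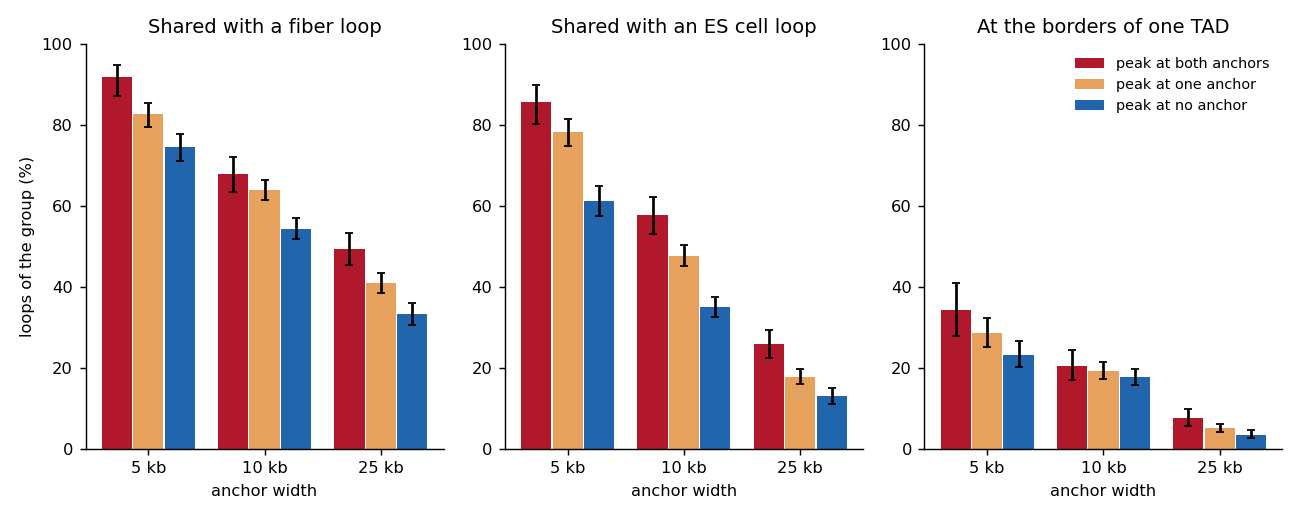
Percent of epithelium loops, by anchor width and group, that were shared with a fiber loop, shared with an ES cell loop, or had their anchors at the borders of one epithelium TAD; error bars are Wilson 95% intervals and axes start at 0. Both-anchor loops have the highest share in each set of bars, for example 85.7% against 61.2% of no-peak loops in ES cells at 5 kb, while the TAD shares at 10 kb overlap.

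Loops whose anchors both lay within 25 kb of the borders of one topologically associating domain (TAD) of the epithelium were most frequent in the both-anchor group. They were 34.2% of both-anchor, 28.5% of one-anchor and 23.3% of no-peak loops at 5 kb (26.9% of all), with a ratio of the first to the last of 1.47 (1.16 to 1.87). At 25 kb the shares were 7.53%, 5.02% and 3.50% (4.98% of all), a ratio of 2.15 (1.42 to 3.25). At 10 kb they were 20.5%, 19.3% and 17.7% (18.7% of all), and the ratio of 1.16 (0.934 to 1.44) was not told apart from 1.

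Bound anchors held gene starts less often than unbound anchors at 5 and 10 kb. A protein-coding start, from 1 kb before to 100 bases after it, lay in 139 of 1005 bound anchors (13.8%, 11.8 to 16.1) and 325 of 1929 unbound anchors (16.8%, 15.2 to 18.6) at 5 kb, against 5.81% of all bins. At 10 kb the shares were 19.9% and 25.7%, against 9.91% of bins, with a ratio of 0.772 (0.701 to 0.852). At 25 kb they were 29.1% and 30.8%, against 19.9% of bins, with a ratio of 0.946 (0.878 to 1.02). The 5 kb ratio of 0.821 (0.683 to 0.986) was not told apart from 1 with the stronger 50% of peaks (0.912, 0.737 to 1.13), with genes of all biotypes (0.896, 0.788 to 1.02) or with all 4 FDR below 0.01 (0.814, 0.662 to 1.00), and with the fiber peak list it was 1.05 (0.885 to 1.24), and 0.991 (0.906 to 1.08) at 10 kb. At 25 kb genes of all biotypes gave 1.05 (1.00 to 1.11), while starts from the promoter table alone gave 0.896 (0.815 to 0.984) and the stronger peaks 0.877 (0.804 to 0.957). Anchor midpoints inside a protein-coding gene were also fewer with a peak, 41.7% against 49.2% at 5 kb, 44.7% against 52.4% at 10 kb and 43.2% against 49.4% at 25 kb.

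Loops with a gene start at both anchors did not differ clearly between groups. They were 4 of 196 both-anchor and 22 of 658 no-peak loops at 5 kb (ratio 0.610, 0.213 to 1.75), 20 of 439 and 95 of 1391 at 10 kb (0.667, 0.417 to 1.07) and 69 of 624 and 99 of 1115 at 25 kb (1.25, 0.931 to 1.67). The stretch between the anchors held more genes in both-anchor loops at the wider anchors, with a median of 0.606 gene starts per 100 kb against 0.333 at 10 kb and 0.494 against 0.235 at 25 kb. It also held more CTCF summits at 25 kb, a median of 0.5 per 100 kb against 0.230. These summits come from the peak list that formed the groups, so this difference is not independent of the grouping. Genes starting at an anchor numbered 708 for both-anchor loops, 1849 for one-anchor loops and 1568 for no-peak loops, 3650 in all of 21900 protein-coding genes.

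Genes of the lens were followed through 6 lists, which were chosen with earlier results of these data known. The shares below therefore describe these lists only. Of 96 listed genes, 38 (39.6%) had a start in a loop anchor, against 3650 of all 21900 (16.7%). Their 85 loops comprised 10 both-anchor (11.8%), 32 one-anchor (37.6%) and 43 no-peak loops (50.6%), against 15.7%, 44.7% and 39.5% of all loops. The anchor at the gene itself was bound for 11 of the 38. Loops of all widths are counted here. Enrichment depends on the width, so the values of single loops are not compared between widths. For genes without strand in the promoter table either end was taken as a possible start.

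Transcription factors of lens development were the list with most genes at anchors, 14 of 20, with 4 both-anchor, 12 one-anchor and 15 no-peak loops. Sox2, which acts with Pax6 on lens genes, had a both-anchor loop from chr3:34640001-34650000 to chr3:35480001-35490000. It spanned 840 kb with 31 contacts against 6.27 expected (4.95), carried peaks of fold 9.74 and 5.75, and was in the fiber and ES cell lists. At 25 kb, a one-anchor loop of Sox2 (400 kb, 2.55) and a no-peak loop (450 kb, 3.05) were shared with fiber cells only. The unbound gene anchor of the no-peak loop, chr3:34650001-34675000, directly adjoins the bound gene anchor of the one-anchor loop.

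Maf, a driver of crystallin expression, had a bound anchor in all its 4 loops, with 2 both-anchor 25 kb loops of 725 and 950 kb (2.71 and 2.47). The gene anchor of Tfap2b, an AP-2 factor, was bound in its 1 loop, whose other anchor was not.

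For 10 of the regulators no epithelium peak lay at the gene's own anchor. Pax6, the master regulator of eye development, had 3 loops, a 10 kb one without any peak (50 kb, 3.09) and, at 25 kb, 1 without any (400 kb, 2.55) and 1 with a peak at the far anchor (500 kb, 2.48). The 4 loops of Meis2, a homeobox gene that acts on Pax6, ran from 205 to 1425 kb, and 3 of them had no peak. Both 10 kb loops of Six3, needed for lens induction, had no peak at either anchor and were shared with fiber cells (440 and 500 kb, 2.90 and 3.57). Gata3 (400 and 1200 kb) and Tfap2a (1290 kb) had peaks at the far anchor only, while Zeb2 (1325 kb), Sox1 (375 kb), Eya1 (325 kb) and Mab21l1 (250 kb) had none. Sall1 had 2 loops with a peak at the far anchor and 1 without.

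Growth factor signalling genes included 12 of 21 at anchors, with 5 both-anchor, 9 one-anchor and 15 no-peak loops. Pdgfra, a receptor that promotes epithelial proliferation, had 5 loops of all groups. Its 10 kb both-anchor loop from chr5:74430001-74440000 to chr5:75150001-75160000 had 30 contacts against 7.70 expected (3.89). At the same gene, 2 loops with 5 kb anchors and no peak had enrichments of 5.08 and 5.66. All 3 of these were in the fiber and ES cell lists. The unbound 5 kb anchor at the gene, chr5:75150001-75155000, is part of the bound 10 kb anchor, so the group depends here on anchor width.

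Fgfr1, a fibroblast growth factor receptor gene, had a 5 kb both-anchor loop of 300 kb (4.21) and a 5 kb one-anchor loop of 240 kb (4.35) from the same left segment. Fgfr1 was placed by either end, and the right anchors of these loops lie apart, so they cannot both hold its start. Jag1, the Notch ligand, had a bound anchor in 3 of 3 loops, the 25 kb both-anchor loop spanning 825 kb (3.02). Igf1r, the insulin-like growth factor receptor, had a 25 kb both-anchor loop of 350 kb (2.79) and a 10 kb no-peak loop of 180 kb (3.10). The unbound 10 kb anchor at Igf1r is part of its bound 25 kb anchor. Fgfr2, Spry2, an inhibitor of receptor tyrosine kinase signalling, and Dusp6, a phosphatase acting on ERK, had no-peak loops alone.

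Among the 5 kb loops of the lists, the highest enrichment was at Wnt7a, a Wnt ligand gene. Its no-peak loop from chr6:91285001-91290000 to chr6:91410001-91415000 spanned 125 kb with 49 contacts against 6.04 expected (8.12) and merged 6 pixels. Both of its anchors held a fiber peak, and the loop was in both other lists. Wnt7b had 2 no-peak 5 kb loops of 270 and 310 kb (5.14 and 4.88) and 1 one-anchor loop, with a fiber peak at its own anchor in all 3.

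Cell cycle genes had 0 both-anchor loops among 15, which allows a share of up to 20% and so includes the 15.7% of all loops. Myc, which drives proliferation, had 8, of which 3 were one-anchor and 5 no-peak loops, and its 25 kb anchor at chr15:61975001-62000000 took part in 6, more than any other anchor of the list. It held a fiber peak and no epithelium peak. Ccnd1, encoding cyclin D1, had a bound anchor in 2 one-anchor loops, with enrichments of 6.66 at 5 kb and 3.30 at 10 kb. Cdkn1c, the gene of the cell cycle inhibitor p57, had 1 one-anchor loop of 170 kb. Both loops of Mycn had no peak (265 and 520 kb).

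The other lists gave few loops. Crybb2, a beta-crystallin gene, was the only crystallin of 16 with a start in an anchor. It lay at the right end of a both-anchor loop from chr5:112450001-112475000 to chr5:113050001-113075000, with 75 contacts against 27.9 expected (2.69), shared with ES cells and not with fiber cells. Among 16 genes of adhesion and the lens capsule, Cdh2, Col4a1, Col4a2 and Ctnnb1 had 4 loops, 3 one-anchor and 1 no-peak. Col4a1 and Col4a2, collagen genes of the capsule that start next to each other, share 1 of these, 60 kb long. Of 10 CTCF and cohesin genes, Stag1, a cohesin subunit, had 1 one-anchor and 3 no-peak loops, and Pds5a, a cohesin regulator, had 1 no-peak loop.

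From the side of the peaks, 5056 of the 16433 epithelium peaks (30.8%, 30.1 to 31.5) lay at a loop anchor, and 2571 of these at a both-anchor loop. Peaks at an anchor were slightly stronger, with a median fold enrichment of 6.05 (5.98 to 6.09) against 5.68 (5.67 to 5.71) elsewhere, and 87.4% of them overlapped a fiber peak against 66.2%. The share at an anchor was 22.3% (20.4 to 24.4) in the weakest 10% of peaks and 37.0% (34.7 to 39.3) in the strongest 10%. Peaks at both-anchor loops and those at one-anchor loops alone had the same median fold to the second decimal or nearly so, 6.04 and 6.05.

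Of the 10 anchor peaks of highest fold, from 13.7 to 23.2, 1 lay within 1 kb of a gene start, at Cpne8, a copine gene (chr15:90679987-90680327, fold 14.3). It was at an anchor of a one-anchor loop. Others lay inside Cmss1 and Filip1l, Fgf13 and Mgst1. The strongest, at chr9:24541924-24542278, was at a both-anchor loop and in no gene body. The peaks at chr11:109011670-109012166 (fold 17.0) and chr13:3372933-3373685 (15.4) lay at anchors of loops of 54870 and 96425 kb. Only 0.0211 and 0.191 contacts were expected for these loops, so their enrichments are uncertain.

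Among both-anchor loops, the strength of the weaker of both peaks made little difference at 5 and 10 kb. With these loops split into 3 equal classes from the weakest to the strongest, the median enrichment was 5.23, 5.09 and 5.22 at 5 kb and 3.58, 3.52 and 3.64 at 10 kb, with overlapping intervals. At 25 kb it was 2.55 (2.47 to 2.64), 2.58 (2.51 to 2.67) and 2.67 (2.61 to 2.78), and the share found in fiber cells was 44.2% (37.6 to 51.0), 48.6% and 55.3% (48.5 to 61.9).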

How the data were processed

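Per the labels, Hi-C and CTCF ChIP-seq reads were aligned to mm10 with BWA. The authors merged both Hi-C replicates, made maps with Juicer and called loops with HiCCUPS (juicer_tools 2.13.06) and TADs with Arrowhead. In the deposited loop list, the observed contacts and numCollapsed are counts, the expected contacts are a signal that HiCCUPS computed from 4 surroundings, and each FDR is a q-value. The deposited MACS2 peaks carry a fold enrichment (ratio) and a −log10 q-value. ChIP-seq depth was not used here, and the labels and methods differ on ChIP replicates, so pooling is not settled.

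Overlaps, medians with order statistic intervals, Wilson intervals of shares and Katz intervals of their ratios were made in Python 3.11.15 (pandas 2.3.3, numpy 2.4.6, scipy 1.17.1 and, for plots, matplotlib 3.10.9) and checked on simulated data. A ratio of medians is given with the range its 2 intervals allow. Gene starts came from RefSeq tables of GRCm38.p6, with strand for 17492 of 21900 protein-coding genes. Genes named are those of 6 lists at an anchor, at the 5 loops of highest enrichment per width in the both-anchor and no-peak groups, and within 1 kb of the 10 strongest anchor peaks. Promoter windows of chromosome 18, which has 302 of the loops, were not analysed here. One listed gene is not reported here. Rn18s-rs5, Gm32898, the promoter genes and gene bodies at peaks were named after their values were seen. Members and lists were chosen with earlier results of these data known.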

Additional observations from a re-analysis of the deposited data

How the results depend on the processing

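Loops were merged lists, so leaving out a replicate could not be run. No paired analysis was possible because each list pools both replicates. Of 144 ratios under other settings, 131 stayed on the same side of 1, among them all 27 for sharing with fiber cells. Values below are given for 5, 10 and 25 kb, and those of these settings not listed lay within the reported interval, though some intervals then reached or left 1; causes were not tested. The share of both-anchor loops was 5.66%, 5.24% and 6.81% with the stronger 50% of peaks, 28.6%, 23.2% and 25.2% with anchors widened by 5 kb, 33.7%, 35.5% and 42.2% with the fiber peak list, and 14.9% at 10 kb with all 4 FDR below 0.01. With the stronger peaks, the ratio of both-anchor to no-peak loops for merged pixels was 1.13 at 5 kb and 0.722 at 25 kb, that for fiber sharing 1.15 at 10 kb, and that for gene starts at bound against unbound anchors 0.877 at 25 kb. With the fiber list, gene starts gave 1.05 at 5 kb (reversed) and 0.991 at 10 kb, fiber sharing 1.34, 1.53 and 1.94, and at 25 kb distance 1.50 and enrichment 1.11. Enrichment at 10 kb was 1.09 with widened anchors. It was 0.971, 1.08 and 1.04 over the expected count of the bottom left and 0.973 at 5 kb over that of the vertical stripe, so that the 5 kb direction depends on the background. Mean distance gave 0.548, 0.565 (reversed) and 0.763. Genes of all biotypes gave 0.914 at 10 kb and 1.05 at 25 kb, starts from the promoter table alone (a setting chosen after seeing the data) 0.645 at 10 kb, and a 25 kb tolerance gave sharing ratios of 1.14, 1.13 and 1.30.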

Other observations

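The epithelium list holds 5 CTCF peaks on the mitochondrial chromosome, with a fold enrichment from 1.48 to 1.80, which enter no loop group.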
